A study of Drosophila sechellia with 6 samples.

Results

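The most abundant messenger RNAs of whole adult female *D. sechellia* were examined in flies of strain 14021-0428.25 fed either a control diet or the same food with added rotten noni, the fruit of *Morinda citrifolia*. A gene was included when it was named GM plus digits in the deposited table, had been tested by the authors (status OK), was above 0 in both diets and had a mean of both diets of at least 2000 FPKM. FPKM is the number of fragments mapped to a gene, scaled for transcript length and library size. Eggshell, yolk and immune genes on a list of 18 names were left out, 11 of which had reached the limit. This gave 161 genes, hereafter the abundant genes, of 17273 in the table. The genes were thus chosen by their FPKM in these same samples, so their levels are a description, and the difference between the diets, from the same pair of values, is described without a test.

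All flies were females aged 0 to 3 days at the start, reared on cornmeal medium at 20 °C under 16 h of light and 8 h of dark, and were kept on 1 of the diets for 24 h. The noni food held 1 g of rotten pulp. There were 3 libraries per diet, each of 10 pooled whole flies, and poly(A) RNA was sequenced with reads of 65 nt. The table gives 1 value per gene and diet, the authors' value over the 3 libraries, so there is no SD, no spread between libraries and no depth for any value, and every difference below lacks a replicate check. In whole flies, fewer cells of a type and less RNA per cell cannot be told apart.

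A small number of genes supplies much of the messenger RNA of any animal. Ribosomal proteins, which build the ribosome in equal numbers, and subunits of the mitochondrial respiratory chain and ATP synthase belong to this class in most cells. In adult flies the gut adds digestive proteases and proteins of the peritrophic matrix, the chitin layer that lines the midgut, and the fat body adds secreted peptides. In insects, as in other animals, many small nucleolar RNAs (snoRNAs), which guide the modification of ribosomal RNA, are made from introns of strongly transcribed genes, among them ribosomal protein genes.

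The female label was checked first. *Yp1* (GM11404) and *Yp2*, which encode yolk proteins made by females, had 13415 and 11056 FPKM in control. In noni they had 23781 and 18179 FPKM. Of 20 male reproductive names, 9 were matched to a gene, and 7 of these 9 genes were at 0 FPKM in both diets. The highest value of any of them was 0.811 FPKM. The yolk genes were therefore among the highest of the table and the matched male genes were at under 1 FPKM in both diets.

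The 161 abundant genes ranged from 1849 to 35140 FPKM in control, with a median of 4522 FPKM, and from 1438 to 27740 FPKM in noni, with a median of 4005 FPKM. They made up 0.932% of the genes in the table and held 44.3% of the summed FPKM in control and 41.9% in noni. The 10 most abundant of them held 22.5% of the sum of the 161 in control and 22.1% in noni. At the limit of 2000 FPKM, the members with the lowest means were GM13677 (2027 FPKM), GM26093 (2024 FPKM) and GM21428 (2013 FPKM), and the genes next below were GM18279 (1940 FPKM), GM19023 (1935 FPKM) and GM14072 (1933 FPKM). Both diets reached 2000 FPKM for 151 of the 161.

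The order at the top was similar in both diets. Of the 10 highest genes in control, 7 were also among the 10 highest in noni, and 42 of the 50 highest were shared. *RpL39* (GM18276), a protein of the large ribosomal subunit, was the highest in control at 35140 FPKM and the 4th in noni at 22839 FPKM. *RpS28b* (GM11375), a protein of the small subunit, had 25980 FPKM in control and 22875 FPKM in noni. GM27017 and GM27016, without a name in the tables used here, had 24254 and 24408 FPKM in control and were the highest of all abundant genes in noni, at 27740 and 27533 FPKM. *CG14645* (GM10746) followed with 22993 and 17644 FPKM, GM23839 with 20703 and 16990 FPKM and *CG13315* (GM25119) with 21504 and 15861 FPKM. The 10 highest means were completed by GM26395, with 12127 FPKM in control and 14127 FPKM in noni, GM21711, at 14164 and 11143 FPKM, and GM14186, at 13832 and 10878 FPKM. Of these 10 genes, GM27016, GM27017 and GM26395 were higher on noni and the other 7 lower.

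**Figure D1:**
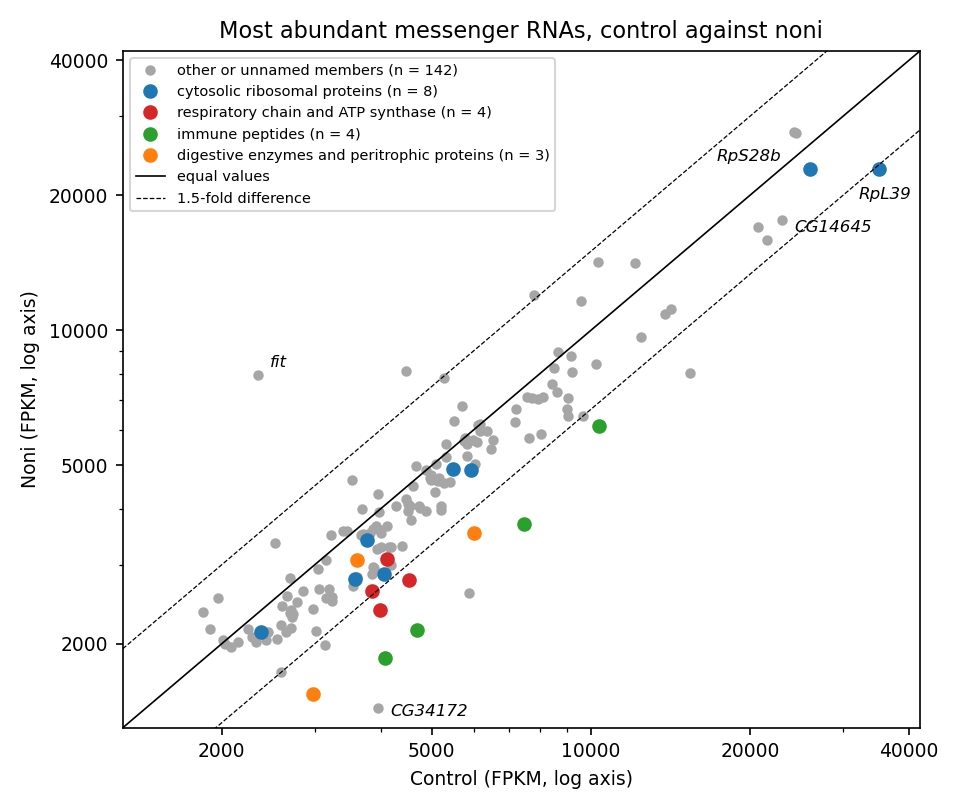
FPKM in control (x axis) and in noni (y axis) of the 161 abundant genes on log axes, 1 point per gene, coloured by group, with a solid line at equal values and dashed lines at a 1.5-fold difference. Of the 161 points, 132 lie below the solid line and 145 lie between the dashed lines.

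To describe how these genes differed between the diets, a log2 ratio was taken for each gene, with noni over control. The ratio was below 0 for 132 of the 161 genes (82.0%) and above 0 for 29. Its median was -0.18, with quartiles of -0.35 and -0.06. Over the 11231 genes of any level that were tested and above 0 in both diets, the median was 0.05, with quartiles of -0.20 and 0.25, and 44.5% were below 0. The quartiles of the abundant genes thus both lay below equality and were 0.29 apart on the log2 scale, against 0.45 for all genes.

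A 1.5-fold difference was reached by 16 of the 161 abundant genes. On noni 13 were lower (8.07%), against 9.15% of all genes, and 3 were higher (1.86%), against 5.42% of all genes. At 2-fold, 5 were lower, where the share over all genes was 3.61%, and 1 was higher, where it was 1.75%. A difference of at least 25% of the lower value was found in 52, of which 43 were lower and 9 higher, where the share over all genes was 36.4% in either direction. The other 145 abundant genes (90.1%) differed by less than 1.5-fold. The same pair of values that chose the members enters these counts, so nothing is read from their distance to the shares of all genes.

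When all genes named GM plus digits were divided by mean FPKM, with the 18 listed names left out, the median log2 ratio was 0.09 between 10 and 100 FPKM (6611 genes) and 0.00 between 100 and 1000 FPKM (1687 genes). Between 1000 and 2000 FPKM, below the limit for the abundant genes, it was -0.17 (101 genes). Among the abundant genes it was -0.22 between 2000 and 4000 FPKM (74 genes), -0.13 between 4000 and 8000 FPKM (63 genes) and -0.24 from 8000 FPKM (24 genes). Medians below 0 were therefore not confined to genes past the limit, and did not become steadily lower within it. FPKM is a relative measure, so a lower value on noni does not separate less of one RNA from more of others.

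**Figure D2:**
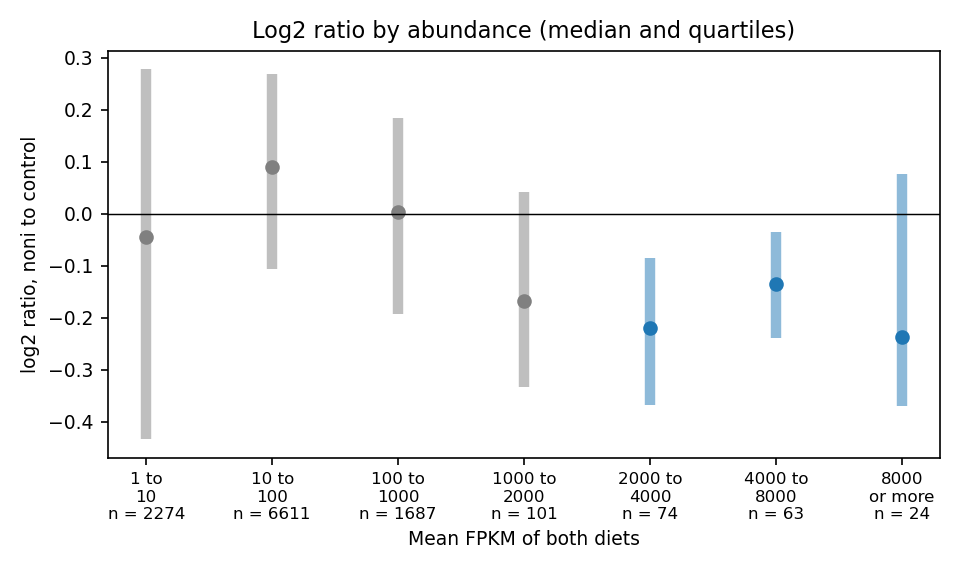
Median (point) and quartiles (bar) of the log2 ratio of noni to control on the y axis, for classes of mean FPKM on the x axis, with abundant genes in blue and other GM genes in grey. The medians of the 4 classes from 1000 FPKM upwards lie between -0.24 and -0.13, and the class from 10 to 100 FPKM has the highest median, 0.09.

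Names of *D. melanogaster* orthologs were found for 27 of the 161 abundant genes in the study's supplementary tables. The copy of these tables used here is shortened and favours genes that responded to a diet, so the named genes are not a fair sample. Their median log2 ratio was -0.42, against -0.15 for the 134 genes without a name. Of the 16 genes past 1.5-fold, 11 had a name.

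All 8 named ribosomal proteins among the abundant genes were lower on noni, with a median log2 ratio of -0.23 and a range of -0.62 to -0.14. Only *RpL39* passed 1.5-fold, with 35140 FPKM in control and 22839 FPKM in noni and a log2 ratio of -0.62. *RpL10Ab* (GM25301) was listed at 4066 and 2861 FPKM (-0.51), *RpL9* (GM11214) at 3571 and 2794 FPKM (-0.35) and *RpL27* (GM10227) at 5920 and 4873 FPKM (-0.28). The smallest differences were those of *RpL13A* (GM10821), with 3773 and 3417 FPKM (-0.14), of GM11496, listed as both *RpS15Aa* and *RpS15Ab*, with 5491 and 4920 FPKM (-0.16), of *RpL35A* (GM10633), with 2376 and 2123 FPKM (-0.16), and of *RpS28b* (-0.18). Levels differed far more between these genes than between the diets, since *RpL39* was 28989 FPKM and *RpL35A* 2249 FPKM as the mean of both diets although their products are used in equal numbers in the ribosome. The 3 other genes with such a name, *RpS18*, *RpS5b* (GM25815) and GM10197 (*RpL34a* and *RpL34b*), were also lower, with log2 ratios of -0.38, -0.18 and -0.46.

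Only genes with a name could be placed in a group, so further abundant genes of a group may be among those without one. Because the names favour genes that responded to a diet, the medians and counts of every group here are not a fair sample of that group. The 4 abundant genes named as subunits of the respiratory chain and ATP synthase were all lower on noni, with a median log2 ratio of -0.63. *COX8* (GM22130), a small subunit of cytochrome c oxidase, had 4522 FPKM in control and 2775 FPKM in noni, a log2 ratio of -0.70. A further subunit of this enzyme, *COX7C*, is the listed ortholog of a pair of genes. GM18734, on scaffold 466 from 6207 to 6515, had 3984 and 2376 FPKM (-0.75; coordinates on build dsec_caf1), and GM21177, on scaffold 1 from 3549812 to 3550120, had 3860 and 2618 FPKM (-0.56). Both loci are 309 nt long, so reads could have been divided between copies and the value of each is uncertain. *ATPsynG* (GM11242), a subunit of ATP synthase, had 4119 and 3089 FPKM (-0.42). The 5 less abundant genes of this list that were above 0 in both diets had a median of 0.01, and 2 of them were lower. The mitochondrial ADP/ATP carrier *sesB* (GM11286) was slightly higher on noni, with 4664 FPKM in control and 4980 FPKM in noni (0.09), so that abundant mitochondrial genes did not all lie on the same side of equality. The 3 less abundant genes of the list of mitochondrial carriers and porin were the carriers *Ant2* (-0.16) and *Mpcp1* (0.20) and the outer-membrane channel *porin* (-0.03).

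Of the genes that name patterns placed on the list of gut genes, 3 were abundant and all were lower on noni. The other 21 genes of that list with values above 0 were also lower, by as little as -0.01 for *Mal-A5*, where 44.5% of all genes were lower. Some of them are copies that may share reads. GM14229, GM14378, GM14380 and GM14382 are all listed as *LysE*, *LysD* and *LysB* with loci of 423 nt, so the genes are not separate observations. Gut genes without a matching name are not counted here. GM12960, the ortholog of *Peritrophin-15a* and *Peritrophin-15b*, which encode chitin-binding proteins of the peritrophic matrix, had 6010 FPKM in control and 3530 FPKM in noni, a log2 ratio of -0.77. GM20316, listed as *CG13323* and *CG13324*, had 2983 and 1546 FPKM (-0.95). Its neighbour GM20317 carries the same names, has the same locus length of 339 nt, and lay below the limit at 2161 and 1142 FPKM (-0.92). The serine protease gene *Jon65Aiii* (GM14741) was much closer between the diets, with 3605 and 3081 FPKM (-0.23).

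Some immune genes were left out by name, and 4 named immune peptides remained among the abundant genes. All 4 were at least 1.5-fold lower on noni, against 9.15% of all genes. Since names favour genes that responded to a diet, nothing is read from the distance between these shares. *Dro* (GM21566), which encodes the antibacterial peptide drosocin, had 10369 FPKM in control and 6123 FPKM in noni, a log2 ratio of -0.76. GM21868, listed as both *BomS2* and *IM2* and called *BomS2* here, encodes a bomanin, one of the short secreted peptides induced through the Toll pathway. It had 7486 and 3708 FPKM (-1.01). *IM4* (GM15770) had 4695 and 2144 FPKM (-1.13) and *IM33* (GM18127) had 4077 and 1860 FPKM (-1.13). Each of these peptides had about 1.7 to 2.2 times as much RNA in control as in noni, by ratios from 1.69 for *Dro* to 2.19 for *IM33*. The other 17 genes of the list, which include 7 of those left out by name, had a median of -0.81, and 15 of them were lower.

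*BomS2* stood in a row of short genes on scaffold 1. Between 11746636 and 11753227 the table lists 7 genes, of which GM21867, *BomS2* and GM19909 are abundant. GM21867, without a name, lies between GM21866, listed as both *BomS1* and *IM2*, and *BomS2*, and had 3133 FPKM in control and 1984 FPKM in noni, a log2 ratio of -0.66. GM19909, at the far end, had 2696 and 2340 FPKM (-0.20). GM21866 shares the listed name *IM2* with GM21868, so which gene that name belongs to is uncertain. Its mean was below the limit, with 2512 FPKM in control and 953 FPKM in noni (-1.40). All 7 genes were lower on noni, by unequal amounts.

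The largest difference in the upward direction was that of *fit* (GM19377) on scaffold 0 from 18081257 to 18081427. In *D. melanogaster* this gene is expressed in the female fat body and encodes a secreted protein that acts in satiety for protein food. It had 2342 FPKM in control and 7953 FPKM in noni, 3.40 times as much and a log2 ratio of 1.76. Among the 161 abundant genes it moved from rank 151 in control to rank 22 in noni. It was the only abundant gene at least 2-fold higher on noni. A name pattern placed *fit* on the list of egg and germline genes, although the site of expression given above is the fat body. The 21 other genes of that list with values above 0 include *Yp1*, which was left out by name. Their median log2 ratio was 0.72, and 20 of the 21 were higher.

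GM21636, on scaffold 35 from 224803 to 225235, was next, with 4477 FPKM in control and 8136 FPKM in noni (0.86). The tables give it no ortholog, and it lies between the chorion genes *Cp36* and *Cp38*, 1579 nt from the former and 33 nt from the latter. *Cp36* (1.26) and *Cp38* (0.97), structural proteins of the eggshell, had log2 ratios of similar size. GM17639, a gene without a name at 7798 and 11961 FPKM (0.62), was the last of the 3 genes at least 1.5-fold higher. GM25531 (5274 and 7814 FPKM, 0.57) and GM25949 (10332 and 14237 FPKM, 0.46) completed the 5 largest upward ratios without reaching that fold. The upward ratios of abundant genes thus came from genes of very different starting levels.

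The largest downward ratio was that of *CG34172* (GM18260) on scaffold 5 from 370030 to 370283, with 3947 FPKM in control and 1438 FPKM in noni (-1.46). GM22774, which has no name, followed with 5890 and 2598 FPKM (-1.18), and then *IM33*, *IM4* and *BomS2*. Another gene without a name, GM22621, was the 8th highest abundant gene in control at 15381 FPKM and the 21st in noni at 8029 FPKM (-0.94). The loci of GM22774 and GM22621 are 147 and 291 nt long.

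**Figure D3:**
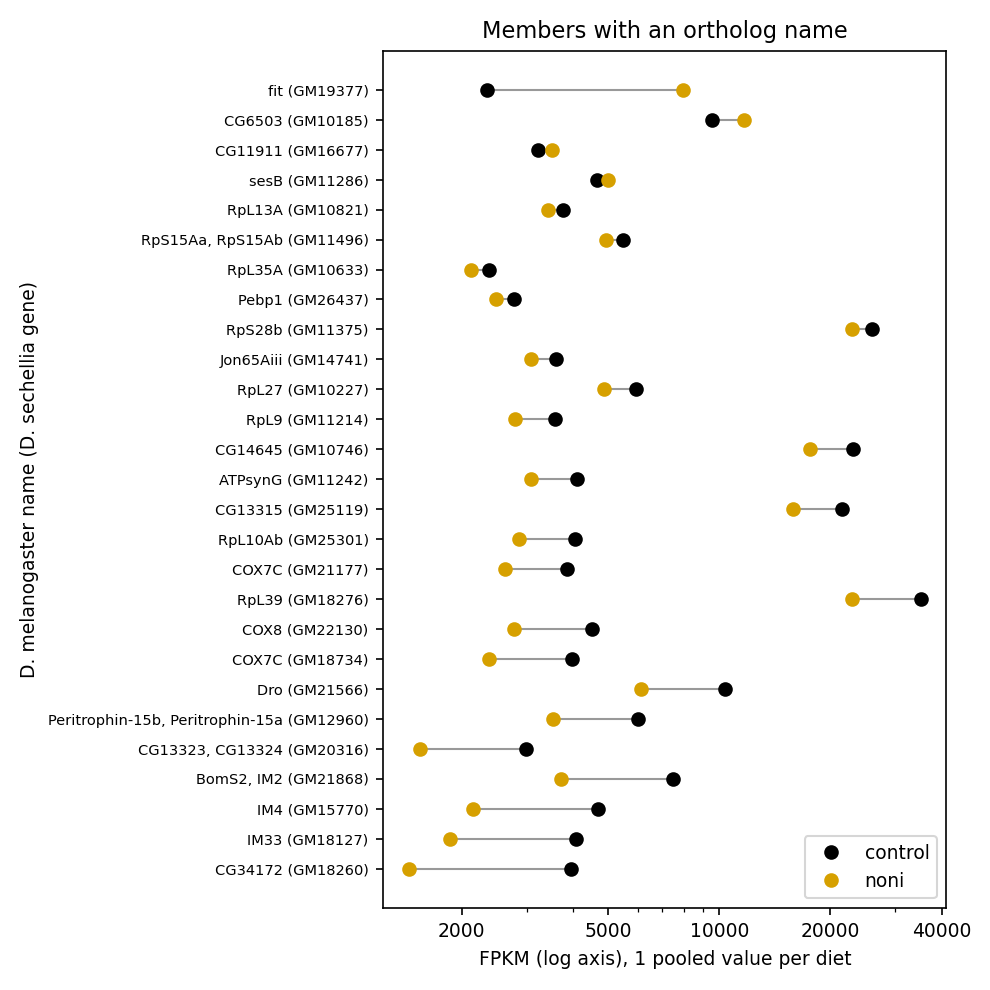
FPKM (x axis, log) in control (black) and noni (yellow) of the 27 abundant genes with an ortholog name, ordered by log2 ratio, with 1 pooled value per diet and no error bars because no value of a single library is given. In 23 of the 27 genes the noni point lies to the left of the control point, and *fit* at the top has the widest gap, from 2342 to 7953 FPKM.

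Other named abundant genes were close to equality or between these extremes. *CG6503* (GM10185) had 9572 FPKM in control and 11655 FPKM in noni (0.28), and *CG11911* (GM16677) had 3223 and 3505 FPKM (0.12). *Pebp1* (GM26437), which encodes a phosphatidylethanolamine-binding protein, had 2780 and 2483 FPKM (-0.16). With *fit* and *sesB*, *CG6503* and *CG11911* were the 4 named genes that were higher on noni.

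The abundant genes often shared their locus with snoRNA genes, a feature that the choice of members did not use. In the deposited table, genes that overlap carry the same locus. At least 1 snoRNA gene was listed at the locus of 24 of the 161 abundant genes (14.9%), 45 snoRNA genes in all. Of the 10673 other GM genes above 0 in both diets, 47 (0.440%) shared their locus with a snoRNA gene, and of those with a mean of at least 10 FPKM, 38 of 8399 (0.452%) did. Abundant genes were a small part of all genes and yet held 24 of these loci, against 47 at all other genes.

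Among the abundant genes with snoRNA genes at their locus were *RpL13A* with 2, *RpL10Ab* with 1, and GM12166, without a name, with 7. GM12166 had 4280 FPKM in control and 4053 FPKM in noni (-0.08), and GM15924, with 5 snoRNA genes, at 3703 and 3521 FPKM (-0.07). GM23839, the most abundant of the 24 and with 1 snoRNA gene, had 20703 and 16990 FPKM (-0.29). The 24 genes varied little, with a median log2 ratio of -0.18 and a range of -0.51 to 0.01. Of the 24, 23 were lower on noni and none, a count of 0, differed by 1.5-fold. Their loci were all at least 658 nt long. Of all abundant genes, 0 of 47 from 600 to 1200 nt and 1 of 32 from 1200 nt passed that fold. The small differences were thus not particular to genes with snoRNA genes. The median of the abundant genes without a snoRNA gene at the locus was also -0.18. Of the 47 less abundant GM genes with a snoRNA gene at the locus, 18 were lower and 29 higher on noni, with a median of 0.10, and 4 passed 1.5-fold. Reads of overlapping genes may have been divided between them, and the effect of this on the values was not tested.

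Some abundant genes lay beside one another, and how often other genes do was not counted. At most 5000 nt separated the members of 13 pairs, which involved 24 of the 161 genes. Both members of 9 pairs were lower on noni. As 82.0% of all abundant genes were lower, nothing about neighbours is read from that count. The log2 ratios within a pair differed by 0.02 to 0.81, with a median of 0.10. GM27016 and GM27017, 2146 nt apart on scaffold 6 and both 297 nt long, were nearly equal in level and in ratio (0.17 and 0.19). GM21315, with 8439 and 7584 FPKM (-0.15), and GM21316, with 7745 and 7084 FPKM (-0.13), are 22 nt apart and were also close. Other neighbours differed in direction. GM14821 had 1849 FPKM in control and 2358 FPKM in noni (0.35), while GM14822, 1258 nt away, had 3610 and 2821 FPKM (-0.36). Beside *RpL39* on scaffold 5, GM18298 was lower on noni (-0.48) and GM18297 higher (0.12). Copies as alike in length and level as GM27016 and GM27017 can share reads, so their single values are uncertain.

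The abundant genes had short loci. The median locus length was 571 nt, with quartiles of 342 and 1044 nt, against 1632 nt, with quartiles of 795 and 3527.5 nt, for all 11231 genes above 0 in both diets. Loci shorter than 300 nt made up 18.6% of the abundant genes (30 of 161) and 5.30% of all genes. A locus includes introns and overlapping genes. FPKM divides by transcript length, so a short annotated transcript raises the value for a given number of fragments. When FPKM was multiplied by locus length, the abundant genes held 19.0% of the sum in control and 17.1% in noni.

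**Figure D4:**
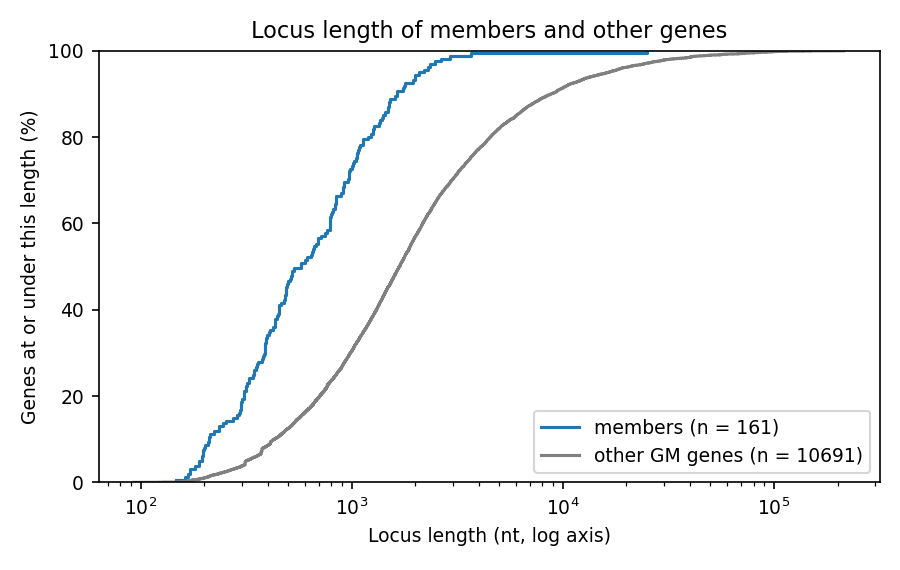
Share of genes (y axis, percent) at or under a given locus length (x axis, nt, log axis) for the 161 abundant genes (blue) and the other GM genes above 0 in both diets (grey). The blue curve lies to the left, with a median of 571 nt and 18.6% of loci under 300 nt.

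Of the 16 abundant genes past 1.5-fold, 15 had loci under 600 nt. Of the 30 abundant genes under 300 nt, 8 were at least 1.5-fold lower on noni and 1 was higher, or 26.7% and 3.33%, and the quartiles of their log2 ratios were -0.60 and 0.19. Of the 397 other GM genes of that length, 21.7% were lower and 17.4% higher by this fold. Of the 52 abundant genes from 300 to 600 nt, 5 were lower (9.62%) and 1 higher (1.92%), against 16.2% and 9.36% of 1325 other GM genes. None of the 47 genes from 600 to 1200 nt, a count of 0, and 1 of the 32 genes from 1200 nt passed this fold, and 87.1% and 90.3% of the other GM genes of these lengths were within it. Of the abundant genes, 43 of the 47 (91.5%) and 27 of the 32 (84.4%) were lower on noni. The shares were 48.2% and 38.4% for the other GM genes of these lengths. The median log2 ratio was -0.24, -0.16, -0.21 and -0.15 in the 4 classes of length. Among the other GM genes the quartiles were likewise widest under 300 nt, at -0.51 and 0.39, and narrowest from 1200 nt, at -0.12 and 0.27. All 4 named abundant immune peptides and *fit* were at loci of at most 309 nt, and the part of locus length in these differences was not tested.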

How the data were processed

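RNA of whole adult females on control or noni food (3 libraries per diet, grouped by their titles) was used. Per the labels and the study's methods, reads were checked with FastQC, mapped with Bowtie2 to dsec_caf1 and analysed with Cuffdiff and the Ensembl release 42 annotation. The FPKM values deposited by the authors came from Cuffdiff, which was run with bias correction and geometric normalization for library size, and are pooled per diet. Tool versions are not given in the sources used here. The deposited log2 ratios, test statistics, p-values and q-values are the authors' own comparison and were not used.

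Log2 ratios of noni to control were computed without a pseudocount. Locus starts were taken to count from 0 and are printed counted from 1, because 44.5% of loci are then a multiple of 3 in length, against 28.4% otherwise. Orthologs came from the supplementary tables (names only), and none of the genes could be matched to the RefSeq table. Groups followed name patterns, 1 of which was narrowed after the data had been seen because it had matched a tRNA synthetase gene. The members and lists were chosen with earlier results of these data known. Genes named were the 10 highest means, the 5 largest ratios in each direction, the extremes of each group, 3 genes on each side of the limit and genes of other names at or above it. Other named orthologs, genes past 1.5-fold, neighbours and genes with snoRNA genes at their locus were added after their values were seen. Alternatives were the fold, centring, a pseudocount of 1 FPKM, locus length, the limit, the background and the sums. An alternative was taken as unchanged within 1.5 times the value. Counting was tested on simulated data without noise, which checks only that the counts are computed as described. Python 3.11.15, numpy 2.4.6, pandas 2.3.3 and matplotlib 3.10.9 were used.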

Additional observations from a re-analysis of the deposited data

How the results depend on the processing

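No paired analysis was possible because the table holds 1 pooled value per diet, and for the same reason no library could be left out. Of 42 alternative values for 13 results, 30 stayed within 1.5 times the reported value and 12 moved further. Only the median log2 ratios could change direction, since counts, shares and lengths are never below 0, and none, a count of 0, did. A pseudocount of 1 FPKM could hardly move genes of at least 2000 FPKM. Counting a shared locus once could change nothing, since no abundant gene had the same locus as another abundant gene. The 13 abundant genes lower on noni and the 3 higher became 43 and 9 for a difference of at least 25% of the lower value, and 5 and 1 at a fold of 2. The count lower was 5 with loci of at least 300 nt, 22 with a mean of at least 1000 FPKM, 6 with a mean of at least 4000 FPKM and 3 without the genes that have an ortholog name, a setting chosen after seeing the data, and each of these changes which genes are counted. The number of abundant genes was 262 at a limit of 1000 FPKM and 87 at 4000 FPKM. Their share of the sum moved from 44.3% to 19.0% in control and from 41.9% to 17.1% in noni when FPKM was multiplied by locus length. The median log2 ratio ranged from -0.23 (centred on all genes) to -0.15 (limit of 4000 FPKM, or genes without a name). Without values of single libraries, no difference can be set against the spread between libraries.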

Other observations

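Genes with other forms of name also reached 2000 FPKM. Of these 16, 8 were of RNA classes and 8 were named protein genes. The deadhead gene *dhd*, a thioredoxin of the female germline in *D. melanogaster*, had 8070 FPKM in control and 9147 FPKM in noni, a log2 ratio of 0.18. The metallothionein genes, which encode metal-binding proteins, lay on both sides of equality. *MtnA* had 7387 and 16470 FPKM (1.16), *MtnC* 4624 and 7040 FPKM (0.61) and *MtnB* 3749 and 2931 FPKM (-0.35). Alcohol dehydrogenase, *Adh*, had 2890 and 3688 FPKM (0.35), and the muscle myosin light chain gene *Mlc1* had 2901 and 3069 FPKM (0.08). *RpS18* had 4869 and 3747 FPKM (-0.38). Of all 16, the snoRNA gene snoRNA:GM27634 had the highest mean, with 39698 FPKM in control and 46057 FPKM in noni on a locus of 96 nt.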
